A study of Mus musculus with 4 samples.

Results

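The 41 genes described here encode the actins, the proteins that bind, cross-link, contract and turn over actin filaments, the serum response factor SRF, the transcriptional co-activator YAP, and genes known as targets of these 2 regulators. They were chosen by gene symbol: every probe set of the array whose platform symbol is one of the 41 belongs to them. The list was drawn up from gene function with results of these same arrays known, so the differences below describe the members and support nothing beyond them. Of the 41 genes, 40 had at least 1 probe set of their own, out of 12393 genes in the table, and Myh10 had none. The 40 genes were read by 87 probe sets, 3 of which are Affymetrix control probe sets for Actb. The samples are R1 mouse embryonic stem (ES) cells, an established line, infected with a lentivirus and harvested 67 h later. Of the 4 arrays, 2 carried RNA from cells with a short hairpin RNA (shRNA) against Brg1, called knockdown here, and 2 carried RNA from cells with an shRNA against GLUT4, called control. All 4 samples were thus infected with a hairpin virus, and no uninfected sample was analysed here. Brg1, encoded by Smarca4, is a motor subunit of SWI/SNF chromatin remodelling complexes, and the comparison asks which RNAs differ when it is depleted. These samples hold 1 RNAi condition per target, so effects of the hairpin sequence itself and of the loss of Brg1 cannot be told apart.

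Actin exists as monomers and as filaments. Monomer-binding proteins such as thymosins and profilin hold or deliver monomers, cofilin severs filaments, and alpha-actinins, filamins and plastins link filaments into bundles and networks. Tropomyosins, calponins and caldesmon lie along filaments and govern their use by myosin II, and vinculin, talin and zyxin anchor them at sites of adhesion. The state of actin feeds back on transcription: free monomers hold back the MRTF co-activators of SRF, while tension and spreading let YAP enter the nucleus, where it acts through TEAD factors.

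The deposited signals had been scaled to 1 common trimmed mean on every array. In both groups the ratio of 3' to 5' beta-actin control probe sets was 1.36 for replicate 1 and 1.31 for replicate 2. Smarca4, the target, had signals of 652.1 and 621.5 on the knockdown arrays, against 1187 and 1214 on the control arrays. Its log2 difference was -0.89 ± 0.08 (SE), with an adjusted p of 0.000232 in the limma fit over all 7815 tested genes, so the RNA was reduced in part. Slc2a4, the GLUT4 gene, lay below the filter at 20.9 and 23.9 in the knockdown against 11.7 and 19.2 signal units in the control. All 10 ES cell markers examined were above the filter, and their summed signal was 18696 and 18326 on the knockdown arrays, against 17217 and 17367 on the control arrays. Within that list Nanog, Klf4, Fgf4 and Esrrb rose by 0.87, 0.76, 0.52 and 0.38 on the log2 scale, the other 6 did not pass, and Sox2 lay lower without overlap (log2 difference -0.22). Of 9 fibroblast markers with a probe set, 1 (Thy1) was above the filter, and the list summed to 103.0 and 127.0 in the knockdown and 111.4 and 113.1 in the control. Of 6 smooth muscle markers, Smtn alone was above the filter, and the sums were 140.9 and 129.6 in the knockdown against 155.0 and 131.0 in the control. No marker was at 0 on all 4 arrays, but the smooth muscle markers Lmod1 and Myocd lay between 0.60 and 5.90 units. The trophoblast markers summed to 152.4 and 168.2 in the knockdown and 73.9 and 94.3 in the control, and the 6 primitive endoderm markers to 241.5 and 274.6 in the knockdown against 278.8 and 300.1 in the control. Neither pair of sums overlapped. All 5 trophoblast markers lay higher in the knockdown without overlap, as did 34.3% of all tested genes. Only Eomes and Hand1 of them were above the filter, and the control signals of Hand1 (18.9 and 21.6) lay below its level. Of the primitive endoderm list, Gata4, Sox17 and Sox7 lay higher (log2 differences 0.43, 0.33 and 0.46) and Lama1, Dab2 and Gata6 lower (-0.55, -0.12 and -0.20). Only Lama1 and Dab2 of that list were above the filter. Hand1 and Lama1 passed the test, and the sizes of markers below the filter rest on the pseudocount. The part of these cell types in the results below was not tested. The RNA is that of whole cultures, so a change in the share of cells of a type and a change in RNA per cell cannot be told apart.

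Most genes of the actin machinery did not pass the test, while 3 filament-associated genes and 3 targets of SRF or YAP rose in the knockdown and 2 actin-binding genes fell. Thbs1, Fhl2, Cald1 and Ccn1 rose by 0.69 to 1.11 on the log2 scale, Pls3 and Actn4 by 0.45 and 0.34, and Tpm4 and Tmsb4x fell by 0.31 and 0.30. Of the 38 members above the filter on low signals, 6 rose and 2 fell at an adjusted p of 0.05, and 30 missed that threshold. Fhl2 stands among these counts although it passed the filter only through its knockdown arrays, its control signals of 13.0 and 14.9 units lying below the filter level of 23.9. That is 21.1% called, against 14.4% of all 7815 tested genes, of which 9.33% were higher and 5.09% lower. The median log2 difference was 0.04 over the tested members and likewise 0.04 over all tested genes, and 14 of the 38 members differed by less than 0.1. In 21 members (55.3%) the 2 knockdown arrays lay both above or both below the 2 control arrays, against 60.2% of all tested genes. They lay above in 12 members and below in 9, against 34.3% and 25.9% of all tested genes. A difference of 1.5-fold or more without overlap was seen in 5 members (Thbs1, Fhl2, Cald1, Axl and Ccn1), all higher in the knockdown, and in 6.17% of all tested genes (4.56% higher). The number of members called was 4 without knockdown replicate 2, and 4 when no filter or no intensity trend was used. Scaling the arrays to hybridisation spike-ins moved the median of all tested genes to 0.33. It gave 10 members higher and 0 lower, and 1413 higher and 30 lower of all tested genes, so directions hold for the deposited scale.

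**Figure D1:**
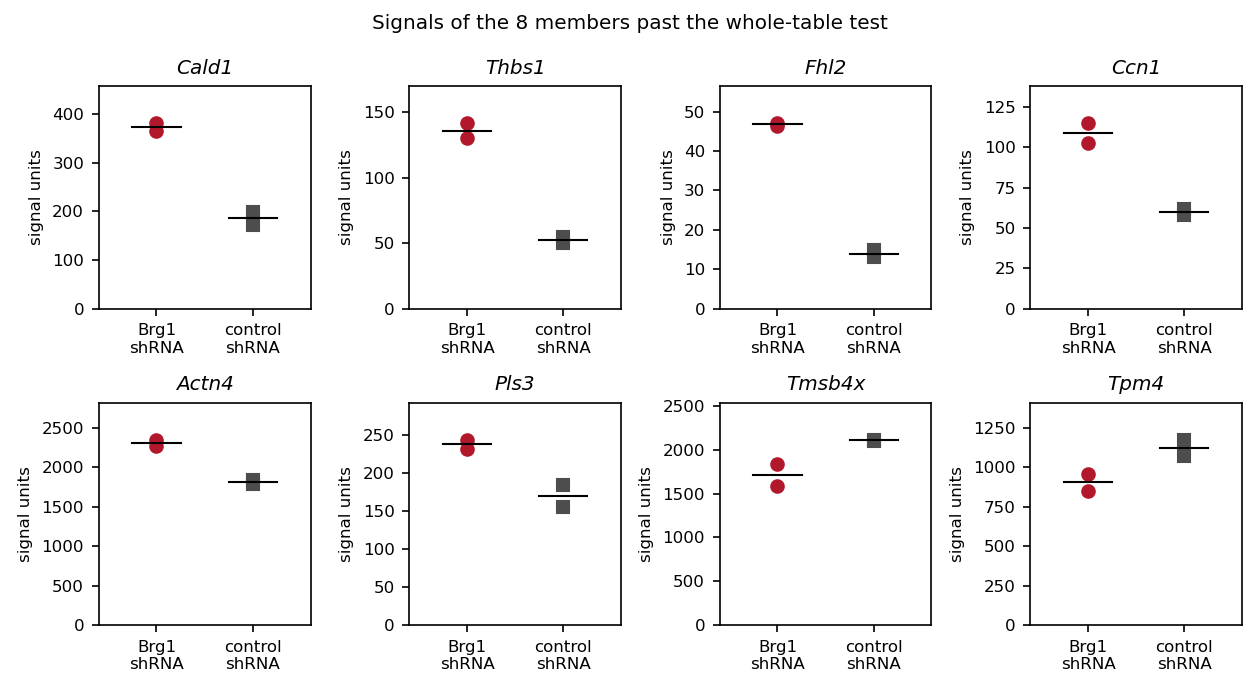
Signal units (vertical axes, from 0) of the 8 members past the whole-table test, with 1 point per array, 2 knockdown arrays (circles) and 2 control arrays (squares), and a bar at each mean. The knockdown arrays lie above both control arrays in 6 genes and below them in Tmsb4x and Tpm4.

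The cytoplasmic actins, the main actins of non-muscle cells, did not pass the test. Actb had 4268 and 4312 signal units in the knockdown, against 4675 and 4231 in the control. Its log2 difference was -0.05, with a 95% interval of -0.20 to 0.10 (adjusted p = 0.644, limma), a value whose sign turned with quantile normalization (0.01) and with spike-in scaling (0.28). The 3 control probe sets for Actb, which read the 3' end, middle and 5' end of the transcript, gave log2 differences of -0.03, -0.02 and -0.03. A dimmer Actb probe set stood apart from these, with 220.9 and 210.8 in the knockdown against 305.8 and 362.2 in the control. It gave a log2 difference of -0.58 ± 0.12 (SE; adjusted p = 0.0186 in limma with each probe set fitted alone). The probe sets of Actb thus did not give 1 answer, and the mean of both passed the test (log2 difference -0.32, adjusted p = 0.0185; range of adjusted p over all settings 0.0185 to 0.935).

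Actg1, the gamma form of cytoplasmic actin, had 5669 and 5503 units in the knockdown, against 5619 and 5236 in the control. The groups overlapped, and the log2 difference was 0.04 (95% interval -0.10 to 0.18, adjusted p = 0.689, limma), or -0.01 with each array centred on its median. Acta2, the smooth muscle alpha-actin, had 103.7 and 119.5 in the knockdown against 92.2 and 77.5 in the control. Both knockdown arrays lay above both control arrays, but the log2 difference of 0.33 ± 0.14 (SE) did not pass (adjusted p = 0.139, limma). With spike-in scaling Acta2 passed, at a log2 difference of 0.60. The further Acta2 probe set lay below the filter, with 5 and 14 units in the knockdown against 3 and 3.4 in the control, and was not tested.

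**Figure D2:**
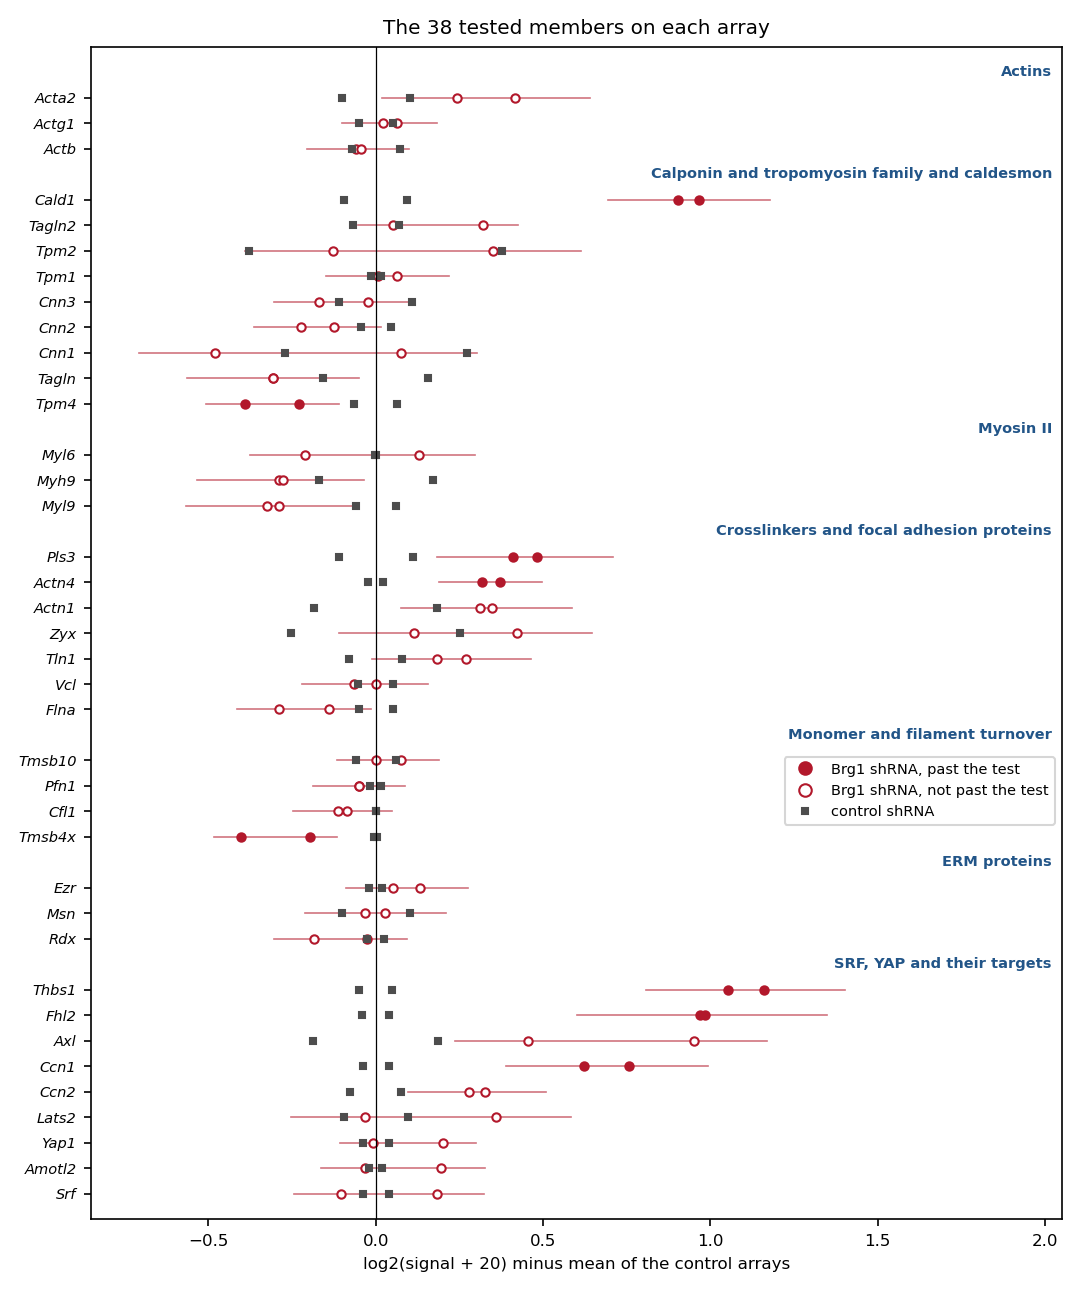
Each array's log2(signal + 20) minus the mean of the 2 control arrays (horizontal axis) for the 38 tested members, grouped by role. Circles are knockdown arrays (filled where the gene passed the test), squares are control arrays, and lines are 95% intervals of the difference. Thbs1, Fhl2 and Cald1 have the highest mean differences, at 1.11, 0.98 and 0.94, and Tpm4 has the lowest, at -0.31.

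Caldesmon stood apart from the other proteins that lie along the filament. Cald1, whose product blocks myosin from actin until it is phosphorylated, had 381.9 and 364.9 units in the knockdown against 172.7 and 199.6 in the control. This is a log2 difference of 0.94 ± 0.11 (SE), 1.91-fold on the scale with the pseudocount, and it passed at an adjusted p of 0.000774 (limma). It passed without each array in turn and under all 15 alternatives, with log2 differences of 0.65 to 1.24. Its further probe sets gave 0.59 (adjusted p = 0.0405 in the limma probe-set fit) and 0.41 (adjusted p = 0.119), the same direction with smaller sizes. Tpm4, a tropomyosin of non-muscle cells, had 852.8 and 957.0 in the knockdown against 1176 and 1075 in the control. It fell by 0.31 ± 0.09 in log2 units (adjusted p = 0.0462, limma), a fall that became a difference of 0.01 with spike-in scaling. The call was lost without knockdown replicate 1 (adjusted p = 0.167, limma) or control replicate 1 (0.175), within a range of 0.018 to 0.963 over all settings, and in the fit of every probe set (0.069).

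Tagln, or SM22, a calponin-family protein long used as an SRF target, had 360.5 and 360.3 units in the knockdown, against 402.1 and 504.1 in the control. The knockdown arrays nearly coincided and lay below both control arrays, which were far from each other. The log2 difference of -0.31 ± 0.11 (SE) did not pass (adjusted p = 0.103, limma). It passed without control replicate 1 (log2 difference -0.46, adjusted p = 0.0227) and with arrays centred on their medians (-0.36, adjusted p = 0.0475), and it was 0.01 with spike-in scaling (range of adjusted p over all settings 0.0227 to 0.981). Cnn2, a calponin found outside muscle, had 665.9 and 714.3 in the knockdown against 756.4 and 805.8 in the control. Its groups did not overlap either, but the log2 difference of -0.17 did not pass (adjusted p = 0.196, limma).

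The remaining calponin, transgelin and tropomyosin genes did not pass the test. Tagln2, Tpm2 and Tpm1 had log2 differences of 0.19, 0.11 and 0.03, and Cnn3 and Cnn1 of -0.10 and -0.20. In all 5 of these genes the arrays of the groups overlapped. Tpm2 varied within both groups, with 419.0 and 294.7 units in the knockdown against 244.8 and 426.9 in the control. Of the 6 tested probe sets of Cnn3, the acidic calponin, all had a negative difference (-0.47 to -0.10). One of them passed the limma probe-set fit, with 1577 and 1489 units in the knockdown against 2282 and 1997 in the control (adjusted p = 0.0136). It is of the type (_x_at) whose probes can bind several transcripts and was therefore not the one used for the gene.

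Non-muscle myosin II, the motor of actomyosin contraction, was read through 3 genes, none of which passed the test. Myl9, a regulatory light chain, had 132.8 and 136.5 units in the knockdown, against 163.5 and 179.4 in the control, a log2 difference of -0.31 ± 0.12 (SE; adjusted p = 0.104, limma). Myh9, the heavy chain of non-muscle myosin IIA, had 653.5 and 659.7 in the knockdown against 906.5 and 711.7 in the control. Its log2 difference of -0.28 (adjusted p = 0.117, limma) passed without control replicate 2, at -0.45 (adjusted p = 0.0114; range over all settings 0.0114 to 0.908). The knockdown arrays of both genes lay below the control arrays, but the difference of Myh9 was 0.04 with spike-in scaling and its 4 probe sets ran from -0.28 to 0.27. Myl6, the essential light chain, had 73.6 and 98.5 in the knockdown against 88.3 and 88.2 in the control on its own probe set, a log2 difference of -0.04. A brighter pair of probe sets, annotated to Myl6 and 2 predicted genes, was outside the comparisons and gave -0.19 and -0.28.

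Among the proteins that cross-link filaments or anchor them at focal adhesions, Actn4 and Pls3 rose and the other 5 tested members did not pass. Actn4, a non-muscle alpha-actinin, had 2265 and 2350 units in the knockdown, against 1786 and 1842 in the control. The groups were well apart, and the log2 difference was 0.34 ± 0.07 (SE; adjusted p = 0.0111, limma). Without knockdown replicate 2 it was 0.32 and did not pass (adjusted p = 0.055; range over all settings 0.00423 to 0.0731). Pls3, or T-plastin, which bundles filaments in non-haematopoietic cells, had 243.5 and 230.7 in the knockdown against 183.5 and 154.6 in the control. It rose by 0.45 ± 0.12 in log2 units (adjusted p = 0.0344, limma). Omitting knockdown replicate 1 (adjusted p = 0.0778) or 2 (0.0607), or control replicate 2 (0.142), ended that call, within a range of 0.00983 to 0.142 over all settings. It also missed the threshold in the fit of every probe set (0.0533). Lcp1, the plastin of blood cells, lay below the filter with 1.2 to 18.1 units and was not tested.

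Actn1, the other non-muscle alpha-actinin, had 1011 and 1037 units in the knockdown, against 710.9 and 923.8 in the control. Its knockdown arrays lay above both control arrays, but the log2 difference of 0.33 ± 0.11 (SE) did not pass (adjusted p = 0.0819, limma). It passed without control replicate 2, the higher control array, at 0.51 (adjusted p = 0.00387), and with a replicate block (0.0408), in a range of 0.00387 to 0.428 over all settings. A further Actn1 probe set gave 0.00, with 307.4 and 303.5 in the knockdown against 308.5 and 300.6 in the control, so the size depends on the probe set. Flna, which links filaments at wide angles, had 701.9 and 631.0 in the knockdown against 747.9 and 803.6 in the control. It did not overlap between groups, and its log2 difference of -0.21 did not pass (adjusted p = 0.137, limma).

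The adhesion proteins gave small or uneven differences. Vcl, or vinculin, had 770.2 and 735.7 units in the knockdown against 742.1 and 799.2 in the control, a log2 difference of -0.03 (95% interval -0.22 to 0.16). Tln1, or talin, which couples integrins to actin, had a log2 difference of 0.23 (adjusted p = 0.177, limma). Zyx, or zyxin, had 229.7 and 289.2 in the knockdown against 173.6 and 255.0 in the control, with overlap between groups and a difference of 0.27 (adjusted p = 0.311, limma). Zyx passed only without control replicate 2, at 0.52 (adjusted p = 0.036; range over all settings 0.036 to 0.965).

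Of the genes that set the pool of actin monomers and the turnover of filaments, Tmsb4x fell and the other 3 did not pass. Tmsb4x encodes thymosin beta 4, which sequesters monomers. It had 1838 and 1592 units in the knockdown, against 2102 and 2116 in the control. It fell by 0.30 ± 0.08 in log2 units (± SE; adjusted p = 0.0401, limma), a fall that became a difference of 0.03 with spike-in scaling. Omitting knockdown replicate 2 (adjusted p = 0.241) or control replicate 1 (0.0683) or 2 (0.0751) ended the call, in a range of 0.0115 to 0.927 over all settings. It also missed the threshold in the fit of every probe set (0.0617). Cfl1, or cofilin, had 2283 and 2325 in the knockdown against 2470 and 2468 in the control, and Pfn1, or profilin, had 3778 and 3780 in the knockdown against 3954 and 3868 in the control. Although neither overlapped between groups, the log2 differences were -0.10 and -0.05 and did not pass (adjusted p = 0.339 and 0.625, limma). Tmsb10, a second monomer-binding thymosin, had 4523 and 4295 in the knockdown against 4476 and 4119 in the control, a log2 difference of 0.04 (95% interval -0.11 to 0.19).

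The ERM genes, whose products tie the membrane to cortical actin, did not pass the test. Ezr (ezrin) had 812.2 and 766.8 units in the knockdown against 727.9 and 749.2 in the control. Msn (moesin) had 668.3 and 697.9 in the knockdown against 734.8 and 636.1 in the control, and Rdx (radixin) had 704.0 and 628.4 in the knockdown against 729.8 and 704.0 in the control. On the probe sets used for the genes, the log2 differences were 0.09 for Ezr, -0.00 for Msn and -0.10 for Rdx. Their 95% intervals lay within -0.30 and 0.28. Further probe sets of Msn and Rdx lay lower without overlap, at -0.27 and -0.29, and did not pass (adjusted p = 0.163 and 0.152, limma probe-set fit). Another of Rdx gave -0.10 and the further one of Ezr 0.23, both with overlap.

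The 2 regulators themselves did not pass the test. Srf had 169.9 and 211.9 units in the knockdown, against 189.8 and 178.7 in the control, a log2 difference of 0.04 (95% interval -0.24 to 0.32). Yap1 had 999.3 and 1160 in the knockdown against 1033 and 977.6 in the control, a log2 difference of 0.10 (95% interval -0.11 to 0.30). The arrays of both genes overlapped between groups. Lats2, the kinase that keeps YAP out of the nucleus and is itself induced by YAP, had 45.7 and 30.1 in the knockdown against 27.9 and 34.7 in the control on its only tested probe set of 6. Amotl2, a scaffold that binds YAP and is likewise induced by it, had 273.4 and 323.7 in the knockdown against 284.1 and 276.0 in the control. Their log2 differences were 0.16 and 0.08 (adjusted p = 0.587 and 0.65, limma).

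Among the targets of SRF and YAP, Thbs1, Fhl2 and Ccn1 rose. Thbs1 encodes thrombospondin 1, a secreted matrix protein. It had 141.8 and 130.3 units in the knockdown, against 50 and 55 in the control, a log2 difference of 1.11 ± 0.13 (SE), or 2.15-fold, past the limma test at an adjusted p of 0.000901. A further probe set of Thbs1 had 167.7 and 136.5 in the knockdown against 45.4 and 45.7 in the control, a log2 difference of 1.39 (adjusted p = 0.0016 in the limma probe-set fit). Thbs1 passed without each array in turn and under all 14 alternatives that tested it. Ccn1 (CYR61), a secreted matricellular protein that serves as a standard readout of YAP, had 102.9 and 115.0 in the knockdown against 62.0 and 57.7 in the control. It rose by 0.69 ± 0.14 in log2 units (± SE; adjusted p = 0.01, limma). Its further probe set gave 0.94, with 184.4 and 173.7 in the knockdown against 78.3 and 90.0 units in the control (limma probe-set fit, adjusted p = 0.00431). That probe set is of the _x_at type, whose probes can bind several transcripts. With no filter Ccn1 missed the threshold (adjusted p = 0.0549; range over all settings 0.000469 to 0.0549).

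Fhl2, a LIM-domain protein of focal adhesions and the nucleus that is known as an SRF target, had 46.4 and 47.1 units in the knockdown, against 13.0 and 14.9 in the control. The control signals lay below the filter level of 23.9 units, so the gene was tested through its knockdown signals and the size rests on the pseudocount. Its log2 difference was 0.98 ± 0.17 (SE; adjusted p = 0.00556, limma), and 1.25 and 0.69 with the smaller and larger pseudocount. Without either knockdown array its mean fell below the filter and it was not tested.

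Ccn2 (CTGF), the relative of Ccn1 and another standard readout of YAP, had 581.3 and 601.2 units in the knockdown, against 450.5 and 502.3 in the control. Its groups did not overlap, but the log2 difference of 0.30 ± 0.09 (SE) just missed the threshold (adjusted p = 0.0557, limma), and it passed without control replicate 2 (0.0431; range over all settings 0.0363 to 0.245). Axl, a receptor tyrosine kinase gene induced by YAP, had 45.2 and 72.0 in the knockdown against 34.2 and 21.8 in the control on its only tested probe set of 2. Its log2 difference of 0.70 ± 0.21 (SE) also just missed it (adjusted p = 0.0509, limma) and passed with a replicate block (0.0306), without knockdown replicate 1 (0.00756) and without control replicate 1 (0.0333), in a range of 0.000924 to 0.225 over all settings. The further Axl probe set lay below the filter, with 2.3 and 4.1 in the knockdown against 10 and 2.5 in the control (log2 difference -0.16). With the stricter filter or the mean of its probe sets Axl was not tested. Ankrd1, a cardiac and stretch-induced YAP target, lay below the filter, with 1.8 to 16 units over the 4 arrays, and was not tested. Of the 9 tested genes of this role, 3 rose, Fhl2 among them, and 6 did not pass, against 14.4% called over all tested genes.

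The sequence elements through which SRF and TEAD factors act were looked up in the promoters of the members, from 250 bases before to 50 after each annotated start (RefSeq, GRCm38.p6). Of the 41 members, 37 had a promoter in the table, and Actb, Tagln, Ccn2 and Thbs1 had none there. The CArG box is the element that SRF binds. Its pattern, CC followed by A or T bases and GG, is the same on both strands, though the letters of a given box need not be. The box was searched with no mismatch. It was found in 7 of the 37 members (18.9%), against 1.81% of 27025 genes, and in 8 of their 47 promoters (17.0%), against 1.63% of 32851 promoters. Those members are Actg1, Cnn2, Myl6, Myl9, Vcl, Srf and Fhl2, several of them long known as SRF targets, so they are no independent sample of genes. The upstream 250 bases of Fhl2, Myl9, Cnn2 and Actg1 are shown because these are the 4 tested members with a CArG box and the smallest p. The box is in capitals, each sequence runs 5' to 3' on the strand of the gene, and Fhl2 has 2 annotated starts. Their positions are chr1:43196762-43197011 and chr1:43163962-43164211 on the minus strand for Fhl2, chr2:156775214-156775463 on the plus strand for Myl9, chr10:79988350-79988599 on the plus strand for Cnn2, and chr11:120348496-120348745 on the minus strand for Actg1.
Fhl2, first start: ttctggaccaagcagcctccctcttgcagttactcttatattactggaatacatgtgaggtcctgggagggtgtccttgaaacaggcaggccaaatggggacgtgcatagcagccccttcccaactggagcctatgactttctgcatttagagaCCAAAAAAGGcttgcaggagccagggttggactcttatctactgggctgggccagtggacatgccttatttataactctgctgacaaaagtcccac
Fhl2, second start: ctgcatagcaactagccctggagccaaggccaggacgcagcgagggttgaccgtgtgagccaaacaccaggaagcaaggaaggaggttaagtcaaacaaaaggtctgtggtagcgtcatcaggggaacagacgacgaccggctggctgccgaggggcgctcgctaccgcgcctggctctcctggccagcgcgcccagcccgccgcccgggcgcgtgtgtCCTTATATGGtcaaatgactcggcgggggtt
Myl9: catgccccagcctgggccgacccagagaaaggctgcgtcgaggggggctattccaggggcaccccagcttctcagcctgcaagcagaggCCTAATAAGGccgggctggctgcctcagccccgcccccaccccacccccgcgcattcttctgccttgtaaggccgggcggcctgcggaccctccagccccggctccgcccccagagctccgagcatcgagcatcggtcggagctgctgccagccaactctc
Cnn2: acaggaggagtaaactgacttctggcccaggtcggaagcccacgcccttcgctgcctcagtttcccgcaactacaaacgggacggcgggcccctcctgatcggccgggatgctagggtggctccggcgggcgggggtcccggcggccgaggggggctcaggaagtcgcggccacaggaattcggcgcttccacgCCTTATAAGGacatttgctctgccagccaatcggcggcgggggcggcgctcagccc
Actg1: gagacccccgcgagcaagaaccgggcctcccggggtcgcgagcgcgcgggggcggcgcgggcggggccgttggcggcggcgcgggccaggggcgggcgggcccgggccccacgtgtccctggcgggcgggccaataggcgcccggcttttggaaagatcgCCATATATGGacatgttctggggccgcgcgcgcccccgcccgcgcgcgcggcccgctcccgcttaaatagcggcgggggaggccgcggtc

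In the other 3 members with a CArG box, the box itself is shown for comparison. Counted back from the start, it begins at base 50 in Myl6, at base 227 in Vcl and at bases 82 and 62 in Srf.
Myl6: CCTTATATGG
Vcl: CCTTATAAGG
Srf, farther box: CCATATAAGG
Srf, nearer box: CCATAAAAGG

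The members with a CArG box did not share a direction. Fhl2 rose (log2 difference 0.98), while the differences were -0.31 in Myl9, -0.17 in Cnn2, -0.04 in Myl6, -0.03 in Vcl, and 0.04 in both Actg1 and Srf, none of which passed. The sequence GGAATG, the core that TEAD factors bind, was found on either strand in 17 of the 37 members (45.9%), against 16.6% of all genes. Lats2, Amotl2, Ccn1, Ankrd1 and Axl are among them and were listed as YAP targets, so these members too are no independent sample of genes. Among the 7 members past the test that had a promoter in the table, 4 held GGAATG (Cald1, Actn4, Pls3 and Ccn1), while Fhl2, Tmsb4x and Tpm4 did not. TGANTCA, the core that AP-1 factors bind, was found in 4 members (Cald1, Actn4, Zyx and Ezr), or 10.8%, against 8.97% of all genes. No test was made of these shares. A match marks letters in a window and does not show that a factor binds there, and the window leaves out distal elements.

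Several members were read by more than 1 probe set, which gives a look at the same RNA through other probes. Of the 84 member probe sets that are no controls, 69 were tested and 10 passed the limma probe-set fit, 8 higher and 2 lower (of all 12543 tested probe sets, 9.26% passed, 5.9% higher and 3.36% lower). Of 19 genes with several tested probe sets, all probe sets had 1 sign in 14. The probe sets of Tpm1, Tpm2, Myh9, Tln1 and Tmsb10 differed in sign, and none of theirs passed. In Thbs1 and Ccn1 every tested probe set passed, in Cald1 2 of 3 did, and in Actb and Cnn3 1 probe set passed while the one used for the gene did not. The further probe set of Ccn1 and the passing one of Cnn3 are of the _x_at type.

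**Figure D3:**
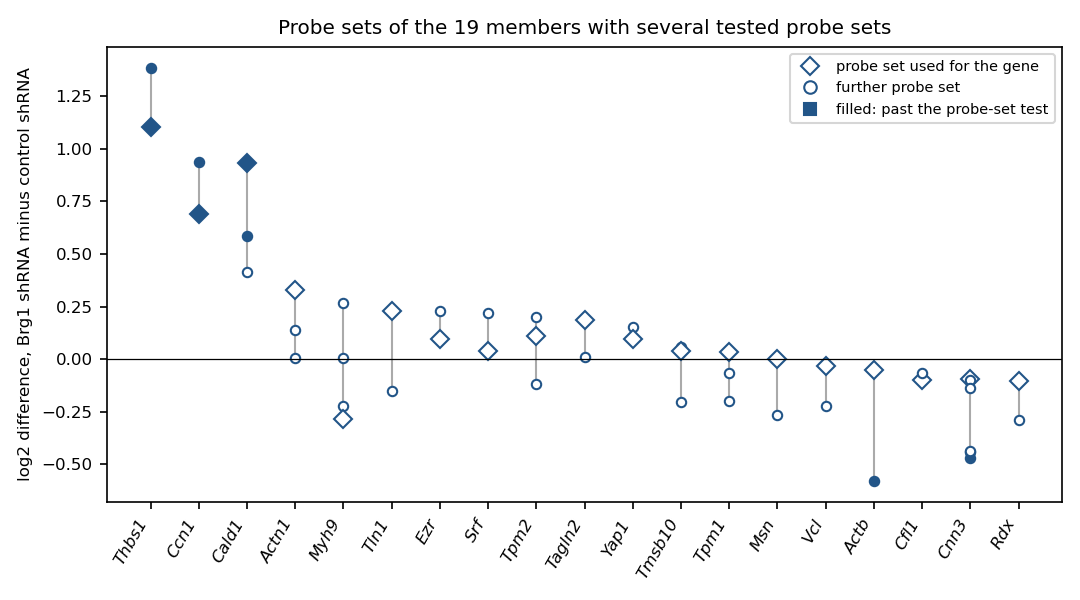
Log2 difference, knockdown minus control (vertical axis), of every tested probe set of the 19 members with more than 1. Diamonds are the probe sets used for the gene, circles the further ones, and filled symbols passed the probe-set test. Thbs1, Ccn1 and Cald1 lie above 0 with all their probe sets, and Actb and Cnn3 each have 1 filled symbol below 0.

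Further genes of the same pathways, from 3 lists, were read in the same fit. Of 76 such genes, 68 had a probe set and 64 were tested, of which 7 rose, 3 fell and 54 missed the threshold. That is 15.6% called, next to 14.4% of all tested genes, with a median log2 difference of 0.09. Of all tested genes, 622 rose and 598 fell with arrays centred on their medians, and 1413 rose and 30 fell with spike-in scaling. Of the pathway genes, 5 rose and 4 fell with that centring, and 15 rose and 0 fell with that scaling. Leaving out knockdown replicate 2 or control replicate 1 lowered the count to 7 in both cases.

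In the Hippo list 3 of 19 tested genes rose and 0 fell, with a median of 0.10. The share called was 15.8%, near the 14.4% of all tested genes. Nf2 (merlin), an upstream activator of the LATS kinases, had 466.9 and 469.1 units in the knockdown, against 328.9 and 342.5 in the control. It rose by 0.46 ± 0.09 in log2 units (± SE; adjusted p = 0.0109, limma), but the mean of its probe sets gave 0.28 and did not pass (adjusted p = 0.0942; range over all settings 0.00664 to 0.0942). Ptpn14, a phosphatase that binds YAP and restrains it, rose by 0.62 ± 0.14, with 80.3 and 81.9 in the knockdown against 43.4 and 48.2 units in the control (adjusted p = 0.0198, limma). Ajuba, a LIM protein that binds LATS kinases, had 1869 and 1714 units in the knockdown against 1461 and 1480 in the control, and rose by 0.28 ± 0.08 (adjusted p = 0.0365, limma). Ptpn14 missed the threshold when knockdown replicate 2 (0.0532) or control replicate 1 (0.0856) was omitted, in a range of 0.00196 to 0.0856. Ajuba missed it when knockdown replicate 1 (0.148) or either control array (0.091 and 0.0676) was omitted, in a range of 0.0132 to 0.148.

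Among the genes of actin nucleation, capping and severing, 1 of 23 tested rose and 2 fell, with a median of 0.10. The share called was 13%, against 14.4% of all tested genes. Gsn (gelsolin), which severs and caps filaments, had 77.6 and 96.6 units in the knockdown, against 30.7 and 39.5 in the control. It rose by 0.96 ± 0.16 in log2 units (± SE; adjusted p = 0.00544, limma) and passed under all 13 alternatives that tested it. Dstn (destrin), which depolymerises filaments, had 1599 and 1416 in the knockdown against 1990 and 2066 in the control, and fell by 0.43 ± 0.08 (adjusted p = 0.00855, limma). Coro1c, a coronin, also fell by 0.43 (adjusted p = 0.0301, limma), with 444.4 and 419.0 in the knockdown against 530.7 and 648.9 units in the control. Both falls shrank to log2 differences of -0.10 and -0.11 with spike-in scaling. Coro1c missed the threshold when replicate 2 of the knockdown (0.0858) or of the control (0.139) was omitted, and the mean of its probe sets gave -0.14 (range of adjusted p 0.00446 to 0.724). None of the tested subunits of the Arp2/3 complex, which nucleates branched filaments, passed.

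Among the adhesion and stress fibre partners 3 of 22 tested genes rose and 1 fell, with a median of 0.06. The share called was 18.2%, against 14.4% of all tested genes. Enah (Mena), which extends filaments at their growing ends, had 1587 and 1750 units in the knockdown, against 1146 and 1108 in the control, and rose by 0.56 ± 0.08 in log2 units (± SE; adjusted p = 0.00219, limma). Pxn (paxillin), a scaffold of focal adhesions, had 479.7 and 461.1 in the knockdown against 313.5 and 330.4 in the control, and rose by 0.52 ± 0.09 (adjusted p = 0.00682, limma). Both passed under all 15 alternatives. Lima1 (EPLIN), which stabilises filaments, had 119.7 and 90.4 in the knockdown against 203.9 and 193.8 in the control, and fell by 0.82 ± 0.14 (adjusted p = 0.00532, limma). Its fall was 0.53 with spike-in scaling and did not pass there (adjusted p = 0.0717; range 0.00056 to 0.0717). The third rise, Vasp, a relative of Enah named after its values were seen, was 0.34 (adjusted p = 0.0369, limma), and it held only without control replicate 2 among the 4 fits with an array left out.

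**Figure D4:**
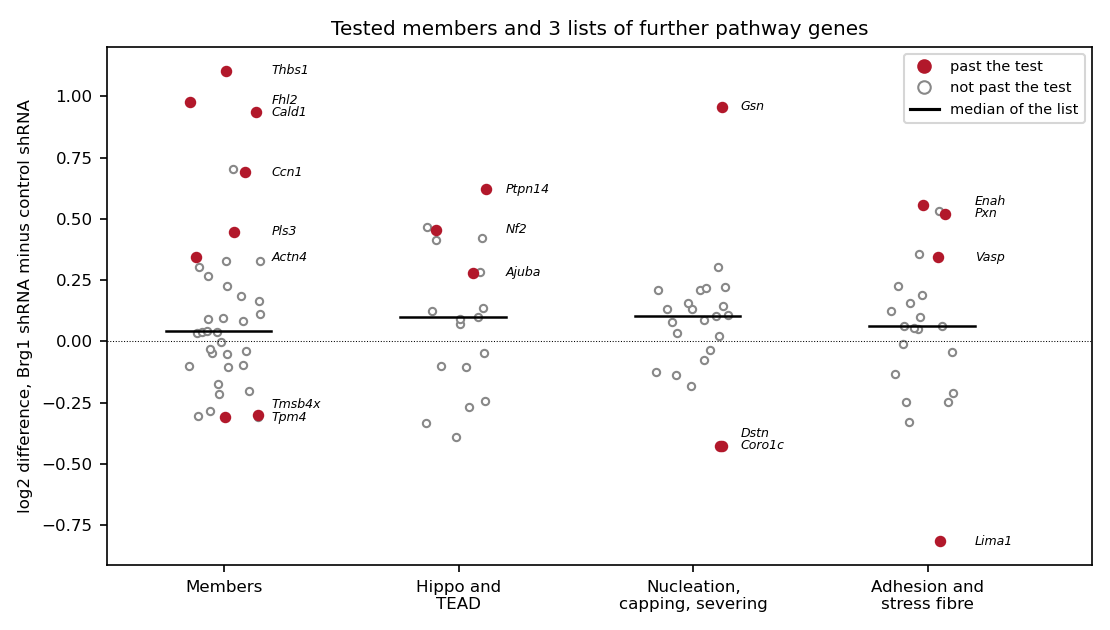
Log2 difference, knockdown minus control (vertical axis), of the 38 tested members and of 64 further genes in 3 lists, with 1 point per gene. Filled points passed the whole-table test and are named, and bars mark the medians, which lie between 0.04 and 0.10.

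**Figure D5:**
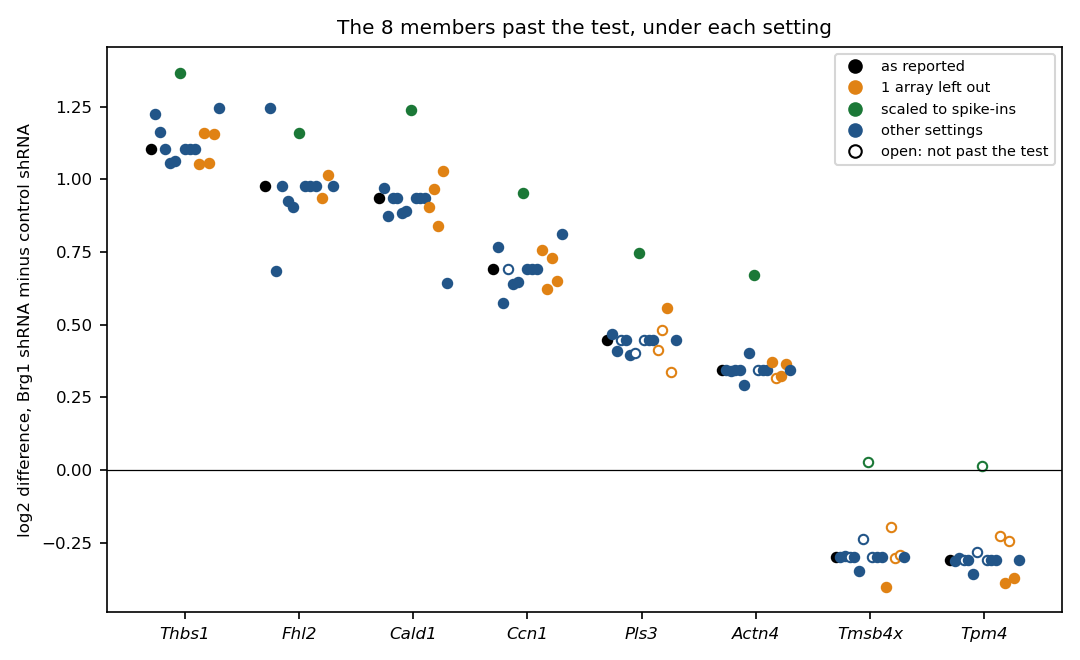
Log2 difference, knockdown minus control (vertical axis), of the 8 members past the test, as reported (black), with 1 array left out (orange), with spike-in scaling (green) and under the other settings (blue). Filled points passed the test in that setting. Thbs1 and Cald1 passed in every setting that tested them, as did Fhl2, which was not tested without either knockdown array or with the stricter filter, and Tmsb4x (0.03) and Tpm4 (0.01) lie above 0 with spike-in scaling.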

How the data were processed

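RNA of 4 samples was read on 1 Affymetrix array each. The deposited values are linear signal intensities, 1 for each probe set of an array, made by the authors with GCOS, per the submitters' processing notes. The GCOS version is not given in the sources used here. Of 22690 probe sets, 64 are controls, 20380 have 1 gene, 691 several and 1555 none in the platform annotation, and gene symbols were matched by Entrez ID to RefSeq (GRCm38.p6). All sample columns were used.

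Signals were analysed as log2(signal + 20.0), with no further normalization. The pseudocount is 10% of the trimmed mean, which leaves out 2% at each end, and log2 differences on this scale understate the change of dim genes. The probe set with the highest mean stood for a gene (_x_at only where there was no other), and genes from the 40th percentile (23.9 signal units) up were tested. The fit of knockdown against control used limma 3.58.1 in R 4.3.3 (lmFit, eBayes with an intensity trend, two-sided, Benjamini-Hochberg over all tested genes, threshold 0.05, no block), and every probe set was also fitted by itself. Values ± are SE of the fit, and 2 arrays per group limit the precision. The labels speak of duplicate infections and give no further origin, so p-values measure the spread between these samples.

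In every role the up to 4 tested genes with the smallest p have their array values given, and from each pathway list up to 3 genes past the test. The members and lists were chosen with earlier results of these data known. The fit was also run on simulated data, whose outcome is not given here and supports none of the calls. The changes planted there were larger than the differences of Tpm4, Tmsb4x, Actn4 and Pls3. Protein comparisons were not made, and 1 further pathway list is not reported here. The replicate numbers are shared between the groups. Deviations of same-numbered arrays correlated at -0.14, while their beta-actin ratios matched (1.36 for replicate 1 and 1.31 for replicate 2). These values do not settle whether the numbers mark pairs, and the main fit used no pairing. Alternatives changed pseudocount, filter, normalization, variance model, threshold, fold, probe set choice and block, and left out each array.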

Additional observations from a re-analysis of the deposited data

Results flagged for a closer look

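A probe set annotated to both Pald1 and Thbs1 was outside the comparisons because it has more than 1 gene. It had 77.5 and 79.6 signal units in the knockdown, against 42.8 and 40.2 in the control. Its log2 difference was 0.68, and both knockdown arrays lay above both control arrays. Which of the genes it reads was not tested. Groups of 2 arrays were not tested for outlying arrays.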

How the results depend on the processing

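Of 721 log2 differences of the 49 named genes under alternatives, 617 kept their direction and their side of the threshold. Another 44 kept the direction and lost the call, 19 gained a call and 41 changed sign. The filter, variance model and block alternatives leave a log2 difference as it is, so its direction could not change there. Of the named genes, 30 are members that had no call to lose, so the 617 are no measure of stability. Cald1 passed in all 15 and Thbs1 in the 14 that tested it. Fhl2 passed in 12, but it was tested through its knockdown signals alone and fell below the filter without either knockdown array and at the 60th percentile, so this count does not show stability. The 8 members past the test became 4 with no filter, 5 with the filter at the 60th percentile (31 members tested), 4 with no intensity trend and 3 at an adjusted p under 0.01. They became 4 to 10 with 1 array left out. The 10 member probe sets became 5 with no filter, 4 at 0.01 and 5 to 11 with 1 array left out. The 10 pathway genes became 6 with no filter, 15 with spike-in scaling, 7 with no trend, 5 at 0.01 and 7 to 11 with 1 array left out. The 5 members at 1.5-fold became 3 with the larger pseudocount, 1 with the stricter filter, 10 with spike-in scaling, 1 at 2-fold and 3 to 5 with 1 array left out. Over all genes the 1127 calls became 433 with no filter, 393 at 0.01 and 637 to 1204 with 1 array left out, the lowest without knockdown replicate 2. The higher and lower probe sets, 8 and 2, became 14 and 0 with spike-in scaling and 8 and 4 with median centring. Over all genes the higher and lower calls, 729 and 398, became 1413 and 30 with spike-in scaling and 622 and 598 with median centring. A stricter filter tests fewer genes and a left-out array leaves fewer samples; for the other alternatives the cause was not tested. The number of members with a CArG box was 7 in the shorter window too.

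Signs turned with spike-in scaling in Actb 0.28, Tagln 0.0079, Cnn1 0.051, Cnn2 0.15, Cnn3 0.23, Tpm4 0.015, Myl6 0.23, Myh9 0.038, Flna 0.11, Vcl 0.29, Cfl1 0.23, Pfn1 0.28, Tmsb4x 0.027, Msn 0.32 and Rdx 0.22. They turned with median centring in Actg1 -0.0079, Tpm1 -0.015, Tmsb10 -0.013 and Srf -0.010, with quantile normalization in Actb 0.0075, Pfn1 0.011 and Srf -0.0080, and with the mean of probe sets in Tpm1 -0.076 and Tpm2 -0.016. With 1 array left out, the log2 differences that crossed 0 ranged as follows, by gene: Actb -0.12 to 0.020, Actg1 -0.0086 to 0.093, Cnn1 -0.48 to 0.074, Cnn3 -0.21 to 0.013, Tpm2 -0.27 to 0.49, Myl6 -0.21 to 0.13, Vcl -0.084 to 0.020, Tmsb10 -0.022 to 0.097, Msn -0.10 to 0.099, Srf -0.10 to 0.18, Yap1 -0.0082 to 0.20, Lats2 -0.031 to 0.36 and Amotl2 -0.032 to 0.20.

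The deviations of same-numbered arrays correlated at -0.14, which does not settle whether they form pairs, and the numbers were not taken as pairs. With a replicate block 10 members, 13 member probe sets, 10 pathway genes and 1187 of all genes passed, with Actn1 and Axl added and no member lost. A crossed replicate block, chosen after seeing the data, gave 11, 15, 11 and 1478. The number of arrays, 2 per group, limits the precision.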

Other observations

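The other 3 probe sets that name a member among several genes were all lower in the knockdown on both arrays. The pair annotated to Myl6 and 2 predicted genes had 1967 and 2043 signal units in the knockdown against 2438 and 2142 in the control, and 2272 and 2210 in the knockdown against 2816 and 2633 in the control, with log2 differences of -0.19 and -0.28. The probe set annotated to Xpo4 and Lats2 had 256.8 and 241.1 in the knockdown against 355.9 and 287.4 in the control, a log2 difference of -0.34.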
